A study of Mus musculus with 28 samples.

Results

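The genes described here are Ccnd2, which encodes cyclin D2, and 6 genes that lie near it on mouse chromosome 6, in the order Rad51ap1, D6Wsu163e, Tigar, Ccnd2, Parp11, Prmt8 and Tspan9. They are 7 of the 18193 genes that have a probe set of their own on the array, and all 7 were among the 13931 genes bright enough to be tested. The members were chosen by their measured values: Ccnd2 for its level by tissue, and the neighbours because they stood above the other medulloblastomas and above the normal brain of the same code in 1 tumour. Values in medulloblastomas are therefore given as a description, without a test. Each gene is represented by the brightest of its probe sets annotated to that symbol alone.

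The study profiled total RNA of mouse brain tumours and normal brain on the Affymetrix Mouse Genome 430 2.0 array, in a model that asks how Rictor, the defining subunit of mTOR complex 2, bears on glioma and on sonic hedgehog medulloblastoma. The 28 arrays analysed here are 10 medulloblastomas, 6 gliomas and 12 normal brains. All tumours carried hGFAP-Cre and were p53-/-, so that Cre recombinase was driven by the human GFAP promoter, which is active in neural stem and precursor cells, and p53 status was shared by every tumour. Tumour pieces held at least 70% tumour cells by histology of equivalent material.

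Of the medulloblastomas, 3 were p53-/- with no Rictor allele named (A3, A5 and A6), 2 were Rictor+/- (B4 and B6) and 5 were Rictor-/- (C1, C2, C4, C5 and C6). Of the gliomas, 1 was p53-/- alone (A4), 4 were Rictor+/- (B1, B2, B3 and B7) and 1 was Rictor-/- (C3). The normal brains were 5 Rictor+/- samples, 5 Rictor-/- samples and 1 sample with no Rictor allele named (A6), all on hGFAP-Cre and p53-/-. The last was 1 sample labelled only as normal mice (Z2), called wild type here. No age is given. The letter and digit are the code in each title. A medulloblastoma and a normal brain share a code in 7 cases and a glioma and a normal brain in 4, and the labels do not say that these came from 1 animal. They also do not say that the samples of a group are separate animals, so p-values measure the spread between samples, which may be technical.

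D-type cyclins bind Cdk4 and Cdk6, and the active kinases phosphorylate the RB protein, which releases E2F factors and lets the cell enter S phase. Cyclin D2 is a D cyclin of granule neuron precursors, the cerebellar cells that divide in response to sonic hedgehog and from which this class of medulloblastoma arises. Its neighbours have unrelated roles: Rad51ap1 acts in homologous recombination, Tigar is a p53-induced fructose-2,6-bisphosphatase that lowers glycolytic flux, Parp11 is a mono-ADP-ribosyltransferase, Prmt8 is an arginine methyltransferase found mainly in brain, and Tspan9 is a tetraspanin of the cell surface.

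The deposited array intensities had the same 2% trimmed mean on every array and a median between 18.8 and 27.8, and no arrays held identical values. The tissues matched their labels: the summed intensity of 4 granule neuron precursor markers was 5122 to 7544 in medulloblastomas, 459 to 1919 in gliomas and 549 to 5028 in normal brains, and that of 4 oligodendrocyte precursor markers was 5502 to 8832 in gliomas and at most 2612 elsewhere. Normal brains B2, C5 and Z2 stood apart by mature granule neuron markers, whose sum was 4141, 10834 and 12951, whereas the remaining 9 reached 1204 at most. The proliferation gene Mki67 was highest in normal brain C2 (275). In bulk RNA, fewer cells of a type and less RNA per cell cannot be told apart.

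Ccnd2 was high in medulloblastoma and at similar, lower levels in most gliomas and normal brains. Its intensity in the 10 medulloblastomas ran from 425 in A3 through a median of 3436 to 6928 in B6, with a mean of 3124 ± 1912 (SD, n = 10). Without B6 the mean was 2702 ± 1451 (SD, n = 9). In the 6 gliomas it ran from 66.4 in B7 through a median of 337 to 2552 in B2 (mean 679 ± 938, SD, n = 6). In the 12 normal brains it ran from 48.7 in Z2 through a median of 334 to 1023 in C2 (mean 348 ± 248, SD, n = 12). The order of the tissues by mean was thus medulloblastoma, glioma, normal brain, and the last pair differed by less than the spread of the gliomas. Of the 10 medulloblastomas, 8 lay above the highest normal brain, and the exceptions were A3 and C6 (645). Of the gliomas, only B2 lay above it. The share of all genes tested with as many medulloblastomas above every normal brain is not given here.

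On the log2 scale, with genotype in the model, Ccnd2 was higher in medulloblastoma than in normal brain by 3.03 (SE 0.53) and higher than in glioma by 2.93 (SE 0.64), and glioma differed from normal brain by 0.10 (SE 0.60). These differences are descriptions, since Ccnd2 was chosen for them. Sample titles carry the prefix YZ or YZ2, which the labels do not explain. Among arrays with the prefix YZ the 3 differences were 4.07, 2.88 and 1.19. With YZ2 they were 2.35, 4.28 and -1.93. The glioma difference thus had another sign in each prefix, on few tumours. The 2 gliomas with YZ2 were B3 (323.4) and B7 (66.4). The 4 with YZ were B2 at 2552.3, and A4, B1 and C3 at 152.5 to 629.2. All 7 Ccnd2 probe sets placed medulloblastoma above normal brain, by 2.90 to 3.53 as plain differences of means.

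The genotype groups overlapped within medulloblastoma. Ccnd2 averaged 2546 ± 1851 (SD, n = 3) in the p53-/- tumours and 2597 ± 1491 (SD, n = 5) in the Rictor-/- tumours, and it was 3689 and 6928 in the Rictor+/- tumours B4 and B6. The low tumours were of different genotypes, A3 being p53-/- alone and C6 and C1 (1514) Rictor-/-. A3 had an Atoh1 intensity of 1269 and C6 of 37.5, so low Ccnd2 was seen both with and without this transcription factor of granule neuron precursors.

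**Figure D1:**
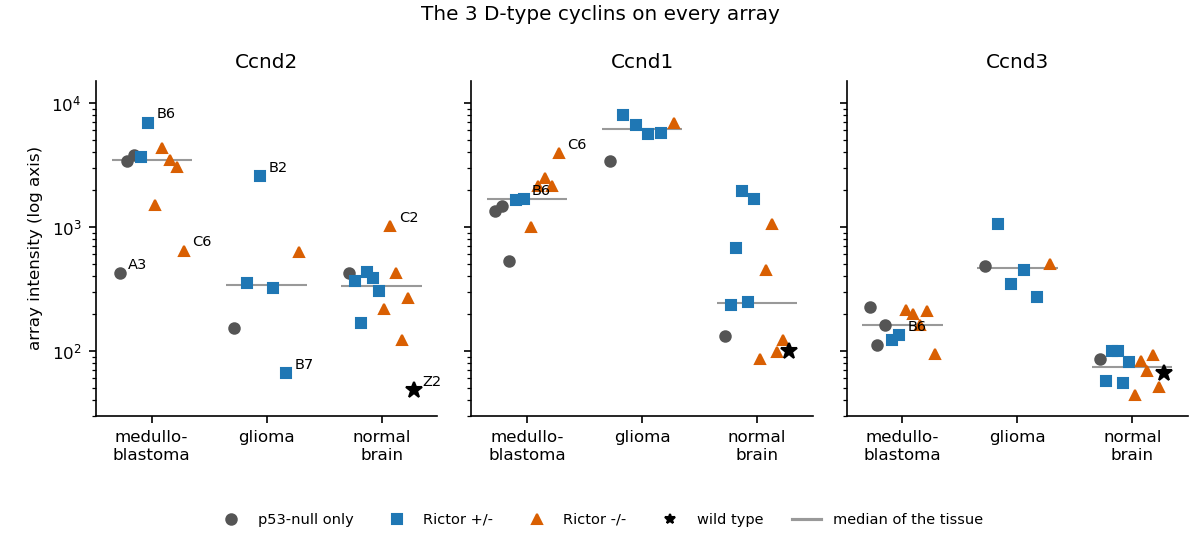
Array intensity (log axis) of Ccnd2, Ccnd1 and Ccnd3 on all 28 arrays, 1 point an array, by tissue; colour and shape give the genotype and the grey line the median. Ccnd2 was highest in medulloblastoma (median 3436), whereas Ccnd1 and Ccnd3 were highest in glioma.

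The other D cyclins had another order. Ccnd1, the D cyclin of many glial and epithelial cells, averaged 6052 ± 1565 (SD, n = 6) in gliomas, 1839 ± 939 (SD, n = 10) in medulloblastomas and 570 ± 654 (SD, n = 12) in normal brains, and the lowest glioma (A4, 3410) exceeded 9 of the 10 medulloblastomas. The exception was C6, whose Ccnd1 intensity of 3961 was the highest of the medulloblastomas and whose Ccnd2 was the second lowest. Ccnd3 averaged 519 ± 280 in gliomas (SD, n = 6), 164 ± 47.2 in medulloblastomas (SD, n = 10) and 73.9 ± 19.3 in normal brains (SD, n = 12). Differences between probe sets of different genes are not compared here, because an array intensity is not scaled between probes.

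The D-cyclin and RB pathway list held 22 other genes, all tested. In medulloblastoma against normal brain 17 of them rose and none fell (limma, adjusted p under 0.05 over all genes), where 64.2% of all genes tested were called, 4491 upward and 4457 downward. The median log2 difference of the list was 1.60 against 0.01 over all genes. Cdk6, a kinase partner of cyclin D2, rose by 5.51 (SE 0.38), from 31.5 ± 38 (SD, n = 12) to 1719 ± 1337 (SD, n = 10). Cdk4, the other partner, rose by 3.06 (SE 0.19), from 102 ± 34.1 to 888 ± 246. E2f2, an activating E2F factor, rose by 2.90 (SE 0.24), and the inhibitor gene Cdkn2a by 3.48 (SE 0.68). Cdkn2d and Cdkn1a, which encode CDK inhibitors, did not pass (-0.30 and -0.56).

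In glioma against normal brain, where 53.9% of all genes were called, 12 of the same 22 genes rose, 1 fell and 9 did not pass, with a median of 0.92 against 0.05 over all genes. Ccnd1 rose by 3.95 (SE 0.52), Cdkn2a by 4.55 (SE 0.78) and Cdkn2c, an inhibitor of Cdk4 and Cdk6, by 3.14 (SE 0.23). Directly between the tumours, 6 genes of the list were higher in medulloblastoma and 1 in glioma, where 28.4% of all genes were called. Cdk6 was higher in medulloblastoma by 5.28 (SE 0.46, adjusted p = 3.085e-09, limma), and Ccnd3 was lower by 1.57 on the log2 scale (SE 0.26, adjusted p = 4.296e-05, limma). Ccnd1 was 1.42 lower in medulloblastoma and did not pass (log2 difference -1.42, SE 0.55, adjusted p = 0.05317, limma).

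The hedgehog list, which holds the pathway above Ccnd2 in granule neuron precursors, had 10 of 13 tested genes higher in medulloblastoma than in normal brain and none lower, where 64.2% of all genes were called in either direction. Atoh1 rose by 5.56 (SE 0.55), the growth-driving factor Mycn by 4.36 (SE 0.29) and the effector Gli2 by 3.51 (SE 0.34). Ptch1, the receptor, did not pass (0.32, SE 0.57). In glioma 4 of the 13 rose and 1 fell (53.9% of all genes called). Against glioma, 9 of the 13 were higher in medulloblastoma and none lower (28.4% of all genes called), with Atoh1 at 5.92 (SE 0.66). Mature neuron markers, 13662 to 19453 in normal brains against 1527 to 11403 in medulloblastomas, moved opposite to these lists, and their part in the result was not tested.

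By Pearson correlation of log2 intensity over the 28 arrays, the genes whose pattern was most like that of Ccnd2 were Rai14 (r = 0.898), Znrf2 (0.844), D930003E18Rik (0.843), Zranb3 (0.836) and Gjc1 (0.834). Rad51ap1 stood 26th of all genes tested (r = 0.792), and no other neighbour exceeded 0.434 (Parp11). Over the 10 medulloblastomas alone the closest genes were Ticrr (0.918), Srebf2 (0.913), Eri1 (0.911), Mtfr2 (0.910) and Mki67 (0.897), the last a marker of dividing cells. These are descriptions, since the arrays share their tissue groups.

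The neighbours differed in their levels across tissues. Rad51ap1, unlike Ccnd2, was higher in both tumours than in normal brain. Its intensity ran from 266 in A3 through a median of 627 to 4068 in B6 among medulloblastomas, from 45.9 in A4 to 252 in B1 among gliomas, and from 13.4 in A6 to 107 in C2 among normal brains. Every medulloblastoma lay above every normal brain, which held for 8.76% of all genes tested. Of the gliomas, 5 lay above the highest normal brain and A4 did not. The share of all genes tested with as many gliomas above every normal brain is not given here, so that count is not read as particular to Rad51ap1. The normal brain at 107 was C2, the one with the highest Mki67, and the next normal brain had 38.6 (B4).

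D6Wsu163e, which lies next to Rad51ap1, was nearly flat across tissues. Its intensity was 154 to 224 in gliomas, 156 to 272 in normal brains and 97.2 to 247 in medulloblastomas without B6, where it was 2001. The 2 genes start 379 bases apart and are read in opposite directions, so that the 250 bases before the start of one overlap those of the other by 122 bases. The upstream windows are shown because this pair shares a start region but separated across tissues. They are from RefSeq, assembly GRCm38.p6, written 5′ to 3′ in the direction of each gene, with the shared bases (chr6:126939716-126939837) in capitals. The window of Rad51ap1 is chr6:126939588-126939837 on the minus strand and that of D6Wsu163e is chr6:126939716-126939965 on the plus strand.
Rad51ap1: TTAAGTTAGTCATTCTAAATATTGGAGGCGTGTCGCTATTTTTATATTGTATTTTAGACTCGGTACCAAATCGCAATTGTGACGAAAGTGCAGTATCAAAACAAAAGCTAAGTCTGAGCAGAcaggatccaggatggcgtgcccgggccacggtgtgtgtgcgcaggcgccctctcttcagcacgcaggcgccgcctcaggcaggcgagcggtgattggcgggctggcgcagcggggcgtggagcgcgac
D6Wsu163e: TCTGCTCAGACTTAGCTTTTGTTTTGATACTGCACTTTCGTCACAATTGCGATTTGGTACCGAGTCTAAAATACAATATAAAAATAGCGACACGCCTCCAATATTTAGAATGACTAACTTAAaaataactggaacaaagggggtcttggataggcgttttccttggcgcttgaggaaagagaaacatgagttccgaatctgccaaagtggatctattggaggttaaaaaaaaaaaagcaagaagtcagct

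The table of promoters held 6 of the 7 members, all but Ccnd2. In windows from 250 bases before to 50 after the start, searched on both strands, the letters GGCGGGAA of an E2F motif occurred in Rad51ap1 and in no other member, against 2.20% of 32544 promoters. They do not occur on either strand of the Rad51ap1 bases printed above, so that match lies in the 50 bases after the start, which are not shown. The GLI motif GGGTGGTC occurred in none of the 6 (0.805% of promoters), the E-box CACGTG in Parp11 (7.17%), and CCAAT in 5 of 6, all but Prmt8 (37.4%). A match describes the letters of the window and says nothing about binding.

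Against normal brain, 4 of the 6 neighbours passed the test in glioma. At the same threshold 53.9% of all genes tested were called, so this share is near the background. Glioma arrays did not enter the choice of members, but the test was not independent of that choice. Medulloblastoma B6 shared the spread and the genotype terms of the fit, and the normal brain of code B6 was also used in choosing. Rad51ap1 rose by 2.14 on the log2 scale (SE 0.39, adjusted p = 4.947e-05, limma). Prmt8 fell by 3.51 (SE 0.44, adjusted p = 3.419e-07, limma): its intensity was 1.9 in B1, 28.2 in A4, 30.8 in C3, 61.2 in B2, 79.3 in B3 and 169 in B7, all below the lowest normal brain at 364. In normal brain it averaged 507 ± 129 (SD, n = 12), with the highest values in C5 (799) and Z2 (675), and in medulloblastoma 548 ± 356 (SD, n = 10).

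Tigar fell by 0.81 (SE 0.33, adjusted p = 0.04002, limma), and its 6 glioma intensities of 51.7 to 68.8 all lay below the lowest normal brain at 73.2. Parp11 rose by 0.80 (SE 0.34, adjusted p = 0.04747, limma), with gliomas at 140 to 503 and normal brains at 44.6 to 138, again without overlap. Its other probe set, which was dimmer, gave a plain difference of 0.12 where the one used gave 0.96. The share of all genes with gliomas and normal brains so separated is not given here. The separation of Prmt8, Tigar and Parp11 is therefore not read as particular to them. Tigar lost its call with the prefix as a term (adjusted p = 0.05371, limma) and in 7 of the 28 fits that left out 1 array, and Parp11 in 17 of 28, including the one without glioma B1 (0.62, adjusted p = 0.1398, limma). Without normal brains B2, C5 and Z2 both calls ended, with Tigar at -0.74 (adjusted p = 0.07591, limma) and Parp11 at 0.75 (adjusted p = 0.08177, limma). D6Wsu163e differed by -0.33 (SE 0.33) and Tspan9 by 0.03 (SE 0.39), and neither passed. Both stayed uncalled in all 28 fits that left out 1 array, the one without medulloblastoma B6 among them. The spread behind these SEs was shared with the medulloblastomas, so it also measures how far B6 stood out. The intensity SD of D6Wsu163e was 576 in medulloblastomas, 28.4 in gliomas and 34.5 in normal brains. For Tigar these were 264, 6.65 and 24.8. Within the prefix YZ 4 of the 6 neighbours passed, and within YZ2, which holds 2 gliomas, 1 did. That was Prmt8, at -2.54.

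Mature neuron markers were also lower in gliomas, at 528 to 4237 against 13662 to 19453 in normal brains, beside the fall of Prmt8. Their part in that fall was not tested. Tspan9 was highest among normal brains in C5 (567.7) and Z2 (526.4), followed by B2 (199.4), the same 3 samples that held mature granule neuron markers, and it was 119 to 166 in the other 9.

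**Figure D2:**
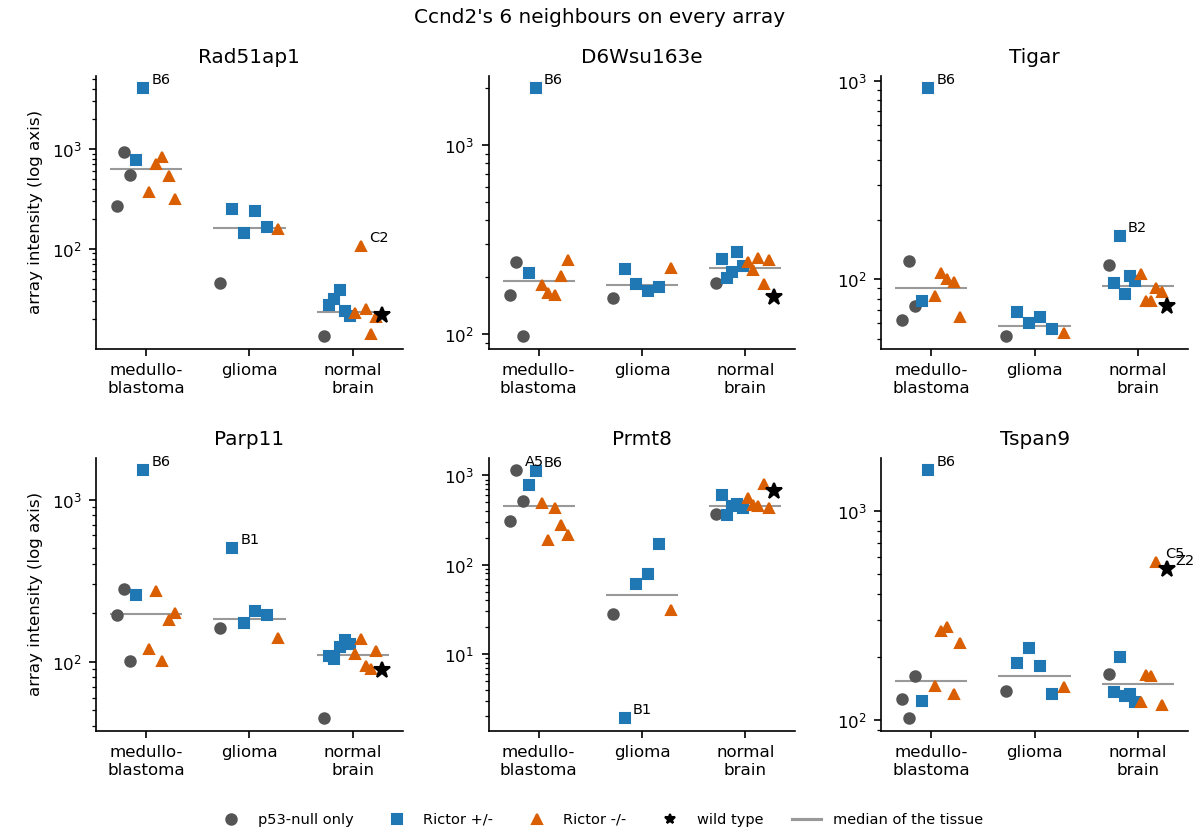
Array intensity (log axis, scaled per panel) of the 6 neighbours on all 28 arrays, 1 point an array, with colour and shape for genotype and a grey line for the tissue median. Medulloblastoma B6 stands above all other arrays for Rad51ap1 (4068), D6Wsu163e (2001), Tigar (919), Parp11 (1517) and Tspan9 (1567), and Prmt8 is low in all 6 gliomas.

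Between Rictor-/- and Rictor+/- normal brains (n = 5 each) none of the 7 members was called by limma, and neither was any of the 13931 genes (0%). At an unadjusted p under 0.05 there were 439 genes, none of them a member. The log2 difference of Ccnd2 was 0.00 (SE 0.48), and those of the neighbours ran from -0.27 for Tigar (SE 0.18) to 0.37 for Tspan9 (SE 0.37). No such contrast was tested in medulloblastoma, where the members were chosen.

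In medulloblastoma B6, a Rictor+/- tumour, all 7 members were at least 2-fold above the median of the other 9 medulloblastomas, where 4.98% of all genes tested were. This is the pattern by which the neighbours were chosen, and the percentage is given beside it without further reading. Tigar was 919 in B6 against a median of 82.5 in the others, a log2 difference of 3.38. D6Wsu163e was 2001 against 181 (3.42), Tspan9 1567 against 146 (3.37), Parp11 1517 against 195 (2.92) and Rad51ap1 4068 against 551 (2.87). Prmt8 was 1130 against 428 (1.39) and Ccnd2 6928 against 3380 (1.03).

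B6 was the highest of the 10 medulloblastomas for 6 of the 7 genes, which held for 4.79% of all genes tested, and the exception was Prmt8, which was 1145 in A5. Set against the highest of all 27 other arrays, whatever their tissue, D6Wsu163e in B6 was 7.36 times as bright, Tigar 5.59, Rad51ap1 4.32, Parp11 3.01, Tspan9 2.76, Ccnd2 1.61 and Prmt8 0.987 times. Ccnd2, the gene that is high in most medulloblastomas, thus stood out least but for Prmt8. The 7 Ccnd2 probe sets gave log2 differences of B6 from the others' median between 1.03 and 3.83: the smallest came from the brightest probe set, which represents the gene here, and the largest from the dimmest (1101 against 71.5). B6 was highest on 19 of the 20 probe sets of the 7 genes.

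**Figure D3:**
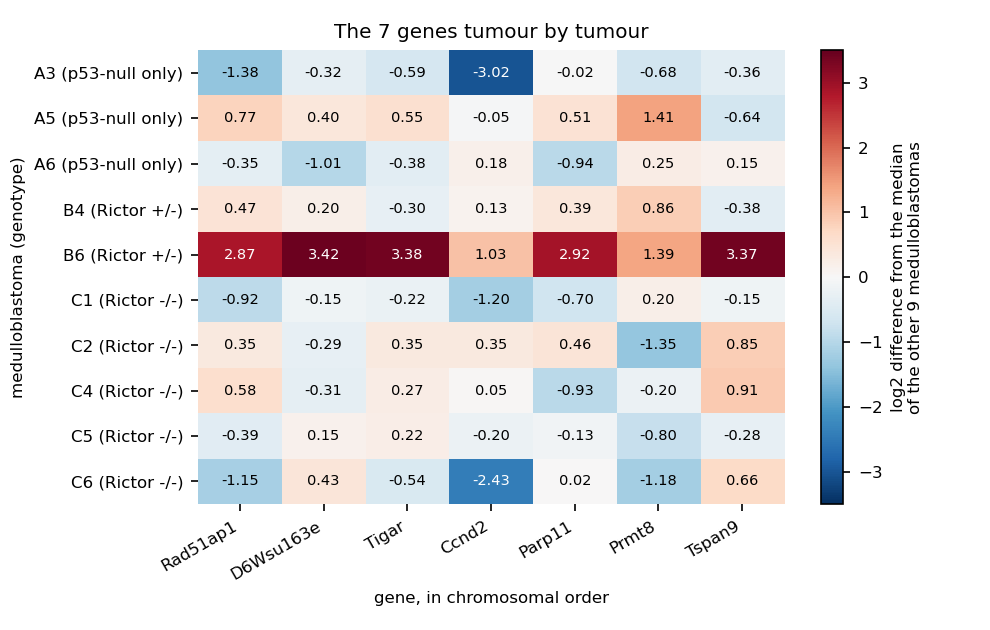
Log2 difference of each medulloblastoma (rows, with genotype) from the median of the other 9 for the 7 genes in chromosomal order (columns), blue below and red above. Only the B6 row is at least 1 in all 7 columns, and Ccnd2 is lowest in A3 (-3.02) and C6 (-2.43).

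No other medulloblastoma had more than 1 member 2-fold up. A5 had Prmt8 (1.41), and the remaining 8 tumours had none. In A3, where Ccnd2 was at -3.02, all 6 neighbours lay below the median of the others, from Rad51ap1 at -1.38 to Parp11 at -0.02. In C6, where Ccnd2 was at -2.43, Prmt8 (-1.18), Rad51ap1 (-1.15) and Tigar (-0.54) were also below it, and D6Wsu163e (0.43), Parp11 (0.02) and Tspan9 (0.66) were not. Among gliomas at most 1 member was 2-fold above the other gliomas in any tumour: Parp11 in B1 (1.51), Ccnd2 in B2 (2.96), and Prmt8 in B3 (1.21) and B7 (2.24). Across the 10 medulloblastomas the 21 pairs of members had a median Pearson r of 0.73 (0.21 to 0.93), and without B6 the median was 0.09 (-0.64 to 0.90). Without B6, Ccnd2 had r = 0.90 with Rad51ap1 and 0.72 with Tigar, and at most 0.37 with the other 4 neighbours.

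Against the normal brain of the same code B6 was again 2-fold up for all 7 genes, where 15.6% of all genes tested were. The log2 differences were 7.09 for Rad51ap1, 4.14 for Ccnd2, 3.50 for Tspan9, 3.41 for Parp11, 3.07 for Tigar, 2.85 for D6Wsu163e and 1.21 for Prmt8. In 3 of the 7 pairs (A6, B4 and C1) tumour and normal brain carry different title prefixes, and in B6, C2, C5 and C6 the same. The other 6 pairs had 2 or 3 members up. Rad51ap1 (2.65 to 4.82) and Ccnd2 (1.25 to 4.57) were up in all 6, and Parp11 in A6 (1.07) and B4 (1.03). D6Wsu163e (-0.89 to 0.13) and Tigar (-0.65 to 0.43) lay near 0 in the same pairs, and in C2, C5 and C6 alone they ran from -0.40 to 0.13 and from -0.38 to 0.43. Tspan9 lay between -2.05 and 0.95, the lowest value being the pair C5, whose normal brain had 567.7.

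**Figure D4:**
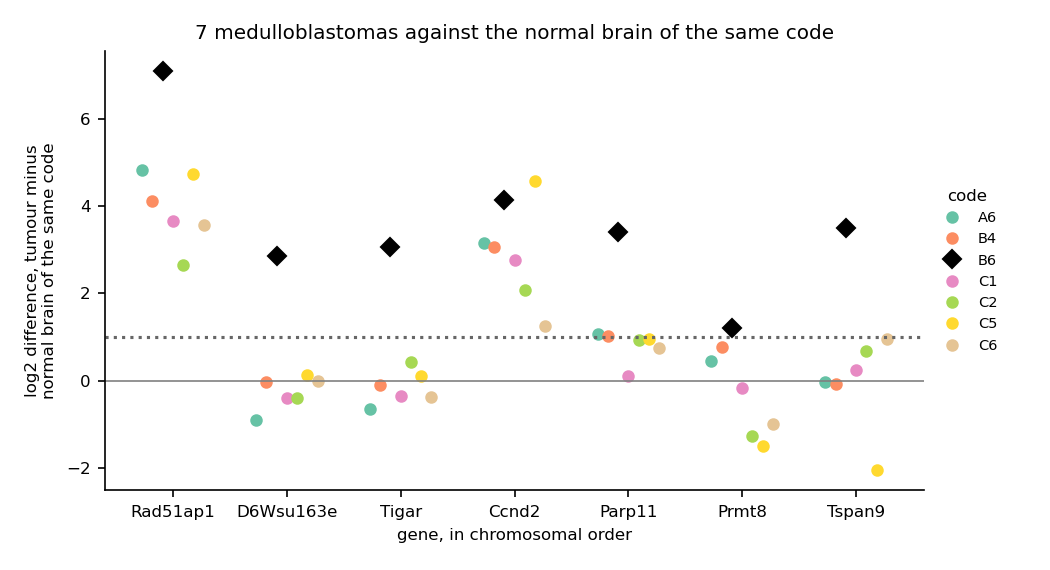
Log2 difference of 7 medulloblastomas from the normal brain of the same code, 1 point a pair, for the 7 genes in chromosomal order, with 0 as a solid and 2-fold as a dotted line. B6 (black diamonds) is the highest pair for every gene but Ccnd2, for which C5 is higher (4.57 against 4.14).

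The run was examined in gene order with the 20 genes on each side of Ccnd2 that have a probe set, 41 genes in all, of which 32 were bright enough to be tested. In B6, 13 of these 32 were 2-fold above the other medulloblastomas, against 0 to 3 in each of the other 9 tumours. Without the members it was 6 of 25. The highest of all was 9330179D12Rik, a long noncoding RNA gene whose span overlaps that of Ccnd2, at 782 in B6 against a median of 33.9 and a next highest of 199.9 in A6 (log2 difference 4.29). Its probe set is named as annotated, and overlap of the probes with Ccnd2 transcripts was not tested. The other 5 were Kcna1 (3.11) and Kcna6 (1.12), which encode potassium channels of mature neurons, Vamp1 (1.39), Ndufa9 (1.10) and Tex52 (1.04).

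The edges of the run were not sharp on this scale. Just before Rad51ap1, Ndufa9, a subunit of respiratory complex I, was at 1.10, and in B6 it exceeded the next medulloblastoma. Within the run, Fgf23 (0.65), which was dim in all tumours, and Tspan11 (0.99) stayed under 2-fold. After Tspan9, 9330102E08Rik was at 0.51, Tulp3 at 0.45, and Rhno1 and Foxm1 at 0.98 and 0.95. Kcna1 was also up in C6 (2.76), C1 (1.41) and A6 (1.08), and Kcna6 was higher in C6 and C1 than in B6. The summed mature neuron markers were 11403 in C6, 7253 in B6, 6859 in C1 and 3162 in A6. Neither channel gene was above the same-code normal brain in B6 (-0.91 and -1.83), unlike the 7 members.

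Over all genes tested, inside and outside the window, 25 in B6 were 2-fold above every other medulloblastoma. Of these, 13 (52%) lie on chromosome 6, which holds 5.21% of the genes tested. Of the 13, 5 are members chosen for standing high in B6, and without the members 8 of 20 (40.0%) lie there. Those 8 still include 9330179D12Rik, which lies inside the window. In the other 9 medulloblastomas 0 to 11 such genes lay on chromosome 6, or at most 12.5%. Such genes also gathered on 1 chromosome in other tumours: 15 of 29 (51.7%) on chromosome 13 in C2, 4 of 10 on chromosome 12 in A5 and 43 of 143 on chromosome 7 in C6. The median log2 difference of the 724 tested genes of chromosome 6 was 0.07 in B6, and 9.53% of them were 2-fold up, against 4.98% of all genes and 2.07% to 8.7% of the chromosome 6 genes in the other medulloblastomas. The 13 genes fell in 3 separate stretches, whose limits were chosen after the values were seen and carry no test. From Rad51ap1 to Tspan9, 8 of 10 tested genes were 2-fold up with a median of 2.89. Those 10 include Ccnd2 and the 6 neighbours chosen for standing high in B6, so count and median partly follow from that choice. The others were 9330179D12Rik (4.29), Fgf23 (0.65) and Tspan11 (0.99).

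From Lrp6, a WNT co-receptor, to Crebl2, 5 of 6 tested genes were up with a median of 2.11, but against the same-code normal brain 3 of 6 were, with a median of 0.79. In B6, Lrp6 was 1475 against a median of 146 in the others (3.28), Dusp16, a phosphatase of MAP kinases, 1450 against 290.2 (2.30), Borcs5 682 against 149 (2.15), Crebl2 173 against 36.5 (2.06) and Mansc1 80.6 against 31.5 (1.20). The CDK inhibitor gene Cdkn1b lies just beyond that stretch and was not raised (1053, log2 difference -0.07). From Ipo8 to Resf1, 8 of 8 were up, at 1.40 to 1.76 (median 1.60), and 7 of 8 against the same-code normal brain, among them Sinhcaf (1937 against 598) and the nuclear import factor Ipo8 (1741 against 542). Between the first and the second stretch 1 of 23 tested genes was up (median 0.33). Between the second and the third it was 6 of 67 (median 0.31). Of these, Ints13 (1.66), Fgfr1op2 (1.43), Med21 (1.33), Klhl42 (1.55) and Ccdc91 (1.11) lay shortly before Ipo8, so the third stretch began without a sharp edge.

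**Figure D5:**
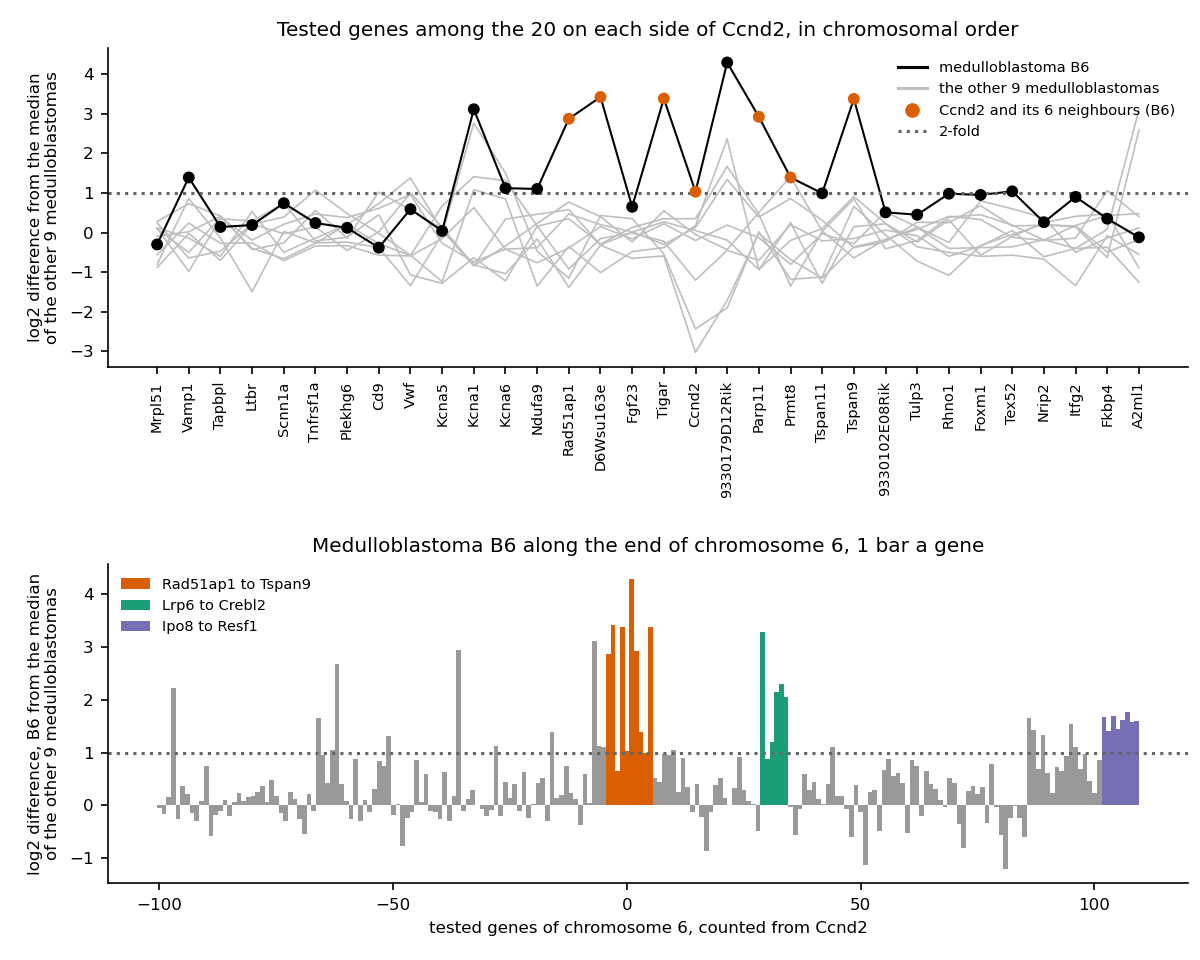
Upper panel: log2 difference from the median of the other 9 medulloblastomas for the tested genes among the 20 on each side of Ccnd2, with B6 in black, the 7 members in orange and the other tumours in grey. Lower panel: the same difference for B6 alone along the end of chromosome 6, 1 bar a tested gene. Colour marks the stretches Rad51ap1 to Tspan9 (median 2.89), Lrp6 to Crebl2 (2.11) and Ipo8 to Resf1 (1.60). The first stretch holds the 7 members, of which the 6 neighbours were chosen for standing high in B6.

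Of 93 tested genes in the 7 family and pathway lists, 4 were 2-fold above the other medulloblastomas in B6, near the 4.98% of all genes, and 1 was below, with a median of 0.04. The lists include Tspan11, which lies within the run, and Cd9 and Cdkn1b, which lie on the same chromosome. The 4 were Cdkn1c (2.67), Tspan17 (1.15), Gli3 (1.04) and Tspan4. None of the 7 TIGAR relatives, 14 PARP genes and 8 PRMT genes was among them. Ccnd1 in B6 was 1676 and Ccnd3 134, both inside the range of the other medulloblastomas.

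B6 also differed from the other medulloblastomas in markers of differentiated cells. Its summed oligodendrocyte markers were 3359, the highest of the 10 (181 to 2568 in the others), and its mature granule neuron markers were 6123, second to C6 (7458). Its proliferation markers were 7084, below only C2 and C4, and its granule neuron precursor markers were 5346, above only C1. The gene with the largest rise in B6 was Gabra6, a receptor subunit of mature granule neurons (1638, log2 difference 5.47). The part of these markers in the raised run was not tested. Gapdh control probe sets, whose 3′ over 5′ ratio gauges RNA integrity, gave 1.29 in B6, inside the range of all arrays (0.874 to 2.58). The same ratio for Actb was 2.72 in B6, with a wider range of 1.49 to 6.21 over all arrays and 1.49 to 4.38 in medulloblastomas.

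The counts of the neighbours' family lists against normal brain stand beside 64.2% of all genes called in medulloblastoma, 4491 up and 4457 down, and 53.9% in glioma, 3960 up and 3550 down. No count of these 4 lists is read as particular to its family. Among 7 tested TIGAR relatives, enzymes that make or remove fructose bisphosphates or phosphoglycerates, 3 fell in medulloblastoma and none rose: Pgam1 fell by 1.56 on the log2 scale (SE 0.12), Pgam2 by 1.90 (SE 0.35) and Pfkfb2 by 0.48 (SE 0.16). In glioma 3 rose and 2 fell, with the gluconeogenic Fbp1 at 2.68 (SE 0.35) and Pgam1 at -1.01 (SE 0.13).

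Of 14 tested PARP genes 8 rose in medulloblastoma and 8 in glioma, with 1 fall in glioma. Parp9 (2.36 and 2.19), Zc3hav1 (2.26 and 2.50) and Parp12 (2.02 and 1.76), members known as interferon-induced, rose most in both, and Parp6 fell by 1.55 in glioma (SE 0.21). Of 8 PRMT genes 4 rose in medulloblastoma and 3 in glioma, and none fell, Prmt1 rising by 1.14 (SE 0.31) and 1.22 (SE 0.36), unlike Prmt8. Of 17 tested tetraspanins 5 rose and 6 fell in medulloblastoma, and 7 rose and 4 fell in glioma. Cd9 rose by 2.03 in medulloblastoma (SE 0.22), and Tspan6 rose by 1.88 (SE 0.15) and 2.50 (SE 0.17) in the respective tumours, whereas Tspan17 fell by 2.51 in medulloblastoma (SE 0.22) and Tspan5 by 1.83 in glioma (SE 0.18).

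Over all 7 lists, 61 of 93 genes passed in medulloblastoma against normal brain, 53 in glioma against normal brain and 46 between the tumours. The first 2 counts are near the 64.2% and 53.9% of all genes called, and the third comparison had 28.4%. Within the prefix YZ the counts were 48, 44 and 23, and within YZ2 57, 29 and 18. The first 2 comparisons share the normal brains. Each value here is from limma with genotype in the model and p-values adjusted over all 13931 genes.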

How the data were processed

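Array intensity values of 45101 probe sets on 28 arrays were used as deposited. The authors made these intensities with MAS5 and GCOS per the submitters' processing notes, with versions not given in the sources used here. They are linear brightness values, and precision is limited by how many arrays each group has. Of the probe sets, 34945 were annotated to 1 gene symbol, 932 to several, 9160 to none, and 64 were controls. The 18193 genes were each represented by their brightest probe set over all arrays. Values were taken as log2(intensity + 6.3), the pseudocount being the 25th percentile of all intensities, so that fold changes of dim genes are understated. The 13931 genes with a mean above the 30th percentile (3.885) were tested.

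Limma 3.58.1 in R 4.3.3 fitted tissue and genotype as additive terms on all 28 arrays. For the Rictor comparison, the 12 normal brains were fitted alone, by genotype. P-values are two-sided and adjusted by the Benjamini-Hochberg method over all genes tested, with 0.05 as the threshold, and the fits were tested on simulated data with known changes. Tumour-by-tumour values are log2 differences from the median of the other tumours of the tissue or from the normal brain of the same code, computed in Python 3.11.15, and up means at least 2-fold.

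The members and lists were chosen with earlier results of these data known. The result of 1 of the 7 lists is not reported here, although its genes are in the totals over all lists. Named were all 7 members, genes of the 41-gene window past 2-fold in a tumour whose members were, the nearest measured genes outside the run, up to 4 called genes of largest change and up to 2 uncalled genes of highest mean per list and comparison, and the 5 genes most like Ccnd2. Genes of the chromosome 6 stretches and those just before the third were named after their values were seen. So were Ccnd1, Ccnd3, Atoh1, Mki67, Cdkn1b, Gabra6 and the runs around Cdk6, Ccnd1 and Mycn. Alternatives were another pseudocount, no filter, quantile normalization, the mean of all probe sets, other Ccnd2 probe sets, the title prefix as a term or as a stratum, the code as a block, other fold limits, and leaving out arrays. Promoter sequences are those of RefSeq, assembly GRCm38.p6.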

Additional observations from a re-analysis of the deposited data

Results flagged for a closer look

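Groups were examined for 1 sample far from the others, by the gap to its nearest neighbour relative to the whole range. Medulloblastoma B6 was such a sample for 5 genes, and these values were among those that chose the genes, so they are given without a chance rate: Rad51ap1 at 4068 (next 941 in A5), D6Wsu163e at 2001 (next 247 in C6), Tigar at 918.9 (next 124 in A5), Parp11 at 1516.8 (next 281 in A5) and Tspan9 at 1566.6 (next 279 in C4). Outside medulloblastoma this held in 5 of 21 groups, where chance gives about 1 in 20. Among gliomas, Rad51ap1 was low in A4 at 45.9 (next 145 in B2), the glioma with the lowest Mki67 (168), and Parp11 was high in B1 at 503.4 (next 206 in B3). Among Rictor-/- normal brains, Rad51ap1 was high in C2 at 107.1 (next 24.9 in C3), where Mki67 was also highest, and Tspan9 was high in C5 at 567.7 (next 164 in C2). Among Rictor+/- normal brains, Tspan9 was high in B2 at 199.4 (next 137 in B1). C5 and B2 also held the highest mature granule neuron markers of their groups, and the part of these markers was not tested.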

How the results depend on the processing

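Of 714 alternative values for 24 results, 666 counted as kept, and none turned a called direction. A gene was kept if it stayed on its side of the threshold, and an uncalled gene was kept whatever its sign. Rad51ap1 between Rictor-/- and Rictor+/- normal brains thus ran from -0.61 to 0.63 and counted as kept. Counts were kept within a fixed ratio of the main count, and untested differences of Ccnd2 within the spread. The 6 neighbours in glioma were the least stable: 4 were called, but 2 with a pseudocount of 32, 2 with the mean of all probe sets, 2 without normal brains B2, C5 and Z2, 1 within the prefix YZ2, and 2 to 4 when 1 array was left out, with 2 without normal brain A6, glioma B1 or normal brain B2. The list genes called in glioma against normal brain were 29 of 93 within YZ2, and those called between the tumours were 23 within YZ and 18 within YZ2; these strata hold fewer arrays. Leaving out 1 array gave 59 to 63, 48 to 53 and 31 to 49 list genes in the 3 tissue comparisons. Ccnd2 in glioma against normal brain was -1.93 within YZ2, and medulloblastoma exceeded glioma by 4.28 there; the cause was not tested. When 1 array was left out these ran from -0.41 to 0.58 and from 2.50 to 3.38, and medulloblastoma over normal brain from 2.82 to 3.27. In B6, 5 of the 7 members were up at a fold limit of 3. With the code as a replicate block the list counts were 62, 55 and 45, and no call of the neighbours changed; same-code deviations correlated above 0.1 in 5 of 7 medulloblastoma and 2 of 4 glioma pairs, and 3 and 1 of them correlated best with their own code, so the code was not treated as pairing. Array intensity near background limits the dim genes, and the 6 gliomas include 1 Rictor-/- and 1 p53-/- sample, which leaves genotype there to single arrays.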

Other observations

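Ccnd2 was not the only cell-cycle gene that stood in a run of raised neighbours in a single medulloblastoma. The following were seen after the values were examined and are given as values without a test. Such runs were common: the longest held 3 to 10 tested genes in each medulloblastoma and 5 to 13 in each glioma. Ccnd3, Cdk4, Cdkn1b, Cdkn2a and Cdkn2c were examined alike and stood in no such run. In C4, a Rictor-/- tumour, Cdk6, the kinase partner of the D cyclins, was 4715 against a next highest of 3462 in the other medulloblastomas. It began a run of 10 consecutive tested genes, from Cdk6 to Cyp51, that were each 1.62 to 2.86 above the median of the others on the log2 scale. Rbm48 (873 against a next highest of 487), Gatad1 (1040 against 552) and Ankib1 (1717 against 1036) were among them.

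In C6, the Rictor-/- tumour with low Ccnd2 (645), Ccnd1 was 3961 against a next highest of 2466, within a run of 6 tested genes from Fgf15 to Mrgprf. Fgf15 was 69.0 against a next highest of 4.5, and the gene annotated as LTO1 was 993 against 133. The longest run in C6 was another, of 9 tested genes. In C5, also Rictor-/-, Mycn was 4134 against a next highest of 3111, within a run of 9 tested genes from Kcns3 to Lratd1. Ddx1 (5709 against 1881), Nbas (824 against 178) and Smc6 (2242 against 739) of that run were highest in C5, whereas Vsnl1 was not (167, with 646 in another medulloblastoma). In B6 the unbroken run around Ccnd2 held 5 tested genes, from Tigar to Prmt8, and the longest, from Ipo8 to Resf1, held 8.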
